A study of Mus musculus with 6 samples.

Results

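The genes of potassium channels were examined in RNA sequencing of mouse hearts under angiotensin II (Ang II), without and with tectochrysin (Tec), a plant flavonoid. A gene was included when its symbol began with Kcn and a lower-case letter and the table listed a protein-coding transcript for it. This gave 86 of the 30914 genes, among them the pore-forming families and the Kcnab, Kcne, Kcnip and Kcnmb auxiliary subunits. Of the 86 genes, 28 reached 0.5 FPKM (fragments relative to transcript length and to all mapped fragments) in at least 3 of the 6 libraries and were tested, out of 13089 such genes in all.

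Hearts came from male C57BL/6J mice labelled WT that were 8 weeks old at the start. Osmotic pumps delivered Ang II to both groups over 4 weeks, at 1 μg/kg/min. The Ang II group (n = 3) received no further agent, and the Ang II + Tec group (n = 3) also received Tec at 5 mg/kg during the final 2 weeks. Mice without Ang II were not analysed here, so every difference below is between Tec-treated and untreated mice that all carried the Ang II load.

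Potassium channels let potassium leave or enter the cell down its gradient, and in heart muscle they end the action potential and hold the resting potential. Voltage-gated (Kv) channels carry the transient and delayed outward currents, inward rectifiers (Kcnj) stabilise the resting potential, tandem-pore (Kcnk) channels leak potassium at all voltages, and calcium- or sodium-activated channels open with these ions. Auxiliary subunits change how the pores open and how many reach the membrane. In the adult mouse ventricle, repolarisation rests mainly on the transient outward current of Kcnd2 and Kcnip2 and on Kcna5 and the Kcnj inward rectifiers, whereas the slow delayed rectifier of Kcnq1 and Kcne1 is small.

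What the pore-forming genes share is the selectivity filter, a short stretch of the pore that coordinates potassium ions. A threonine or serine codon, then a valine, isoleucine, leucine or phenylalanine codon, then glycine, tyrosine or phenylalanine, and glycine, was found in the longest coding sequence of 67 of the 69 pore-forming genes (GENCODE M21, GRCm38). It occurred at 2 places in 8 of them and was not found in this form in Kcnk1 or Kcnk7. It was found in 0 of the 17 other genes, the auxiliary subunits and Kcnrg. The stretches below are those of Kcna7, Kcnn1, Kcnj2 and Kcnj14, whose groups did not overlap, and of Kcnj3 and Kcnj5, the paired subunits of the atrial acetylcholine-gated channel. Each is the coding strand, 5′ to 3′, with the 3 codons of the filter's glycine, tyrosine and glycine in capitals.
Kcna7, chr7:45409452-45409481, plus strand: accatgaccacggttGGCTATGGGgacatg
Kcnn1, chr8:70850651-70850680, minus strand: accttcttgtccattGGCTATGGAgacatg
Kcnj2, chr11:111072198-111072227, plus strand: acccagacaaccattGGCTATGGTttcagg
Kcnj14, chr7:45819627-45819656, minus strand: acacagacgtccataGGCTATGGTgtgcgc
Kcnj3, chr2:55437618-55437647, plus strand: accgaggccaccatcGGCTATGGCtaccgc
Kcnj5, chr9:32322553-32322582, minus strand: acagaaacaaccattGGGTATGGCttcaga

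Each library held the markers of ventricular muscle that its heart label implies, with Myl2 between 1227 and 2115 FPKM. Atrial muscle was uneven. All 8 atrial markers examined were in the table, and their summed level was 6283, 10349 and 267 FPKM in Ang II replicates 1 to 3, and 916, 5179 and 144 FPKM in Ang II + Tec replicates 1 to 3. Nppa, whose transcript the paper reports as raised by Ang II, made up most of each sum. It was at 5568, 9456 and 256 FPKM under Ang II alone and at 906, 3489 and 125 FPKM with Tec. The sum is therefore not a measure of atrial tissue alone, and the atrial marker score used below left Nppa out. Myl7, the atrial myosin light chain, was at 419, 332 and 0 FPKM under Ang II alone and at 0, 1040 and 1.58 FPKM with Tec, so atrial tissue was present in some hearts of each group and nearly absent from the others. Fibroblast markers (5 genes, none at 0) summed to 552, 697 and 123 FPKM under Ang II alone and to 105, 175 and 117 FPKM with Tec, which set Ang II replicate 3 beside the Tec-treated hearts. Transcripts of the mitochondrial genome took 40.1% to 48.9% of all FPKM under Ang II alone and 49.6% to 52.5% with Tec. The depth of the libraries, known from FPKM only relative to Ang II replicate 1, ranged from 0.953 to 1.30. In bulk hearts, fewer cells of a type and less RNA per cell cannot be told apart.

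Potassium channel transcripts were a small share of the heart's RNA and were carried by few genes. The 86 genes summed to 256, 221 and 237 FPKM under Ang II alone and to 194, 249 and 210 FPKM with Tec, with overlapping groups, and made up 0.0312% to 0.0496% of all FPKM. FPKM are scaled to transcript length, so levels can be set beside each other across genes. Means over the 6 libraries reached 10 FPKM for 8 genes and 1 FPKM for 22 genes. The highest were Kcnk3 (34.6 FPKM), the acid-sensitive leak channel TASK-1, Kcnip2 (32.0 FPKM), the calcium-binding subunit of the transient outward channel, and Kcng2 (29.6 FPKM), a silent Kv subunit that alters other Kv pores. They were followed by Kcnj11 (22.8 FPKM) and Kcnj8 (15.1 FPKM), the pores of the ATP-sensitive channels. These 5 genes held 53.8% to 65.6% of the summed channel level in a library. The neighbours in this order overlapped in their libraries from Kcnk3 to Kcng2, so their rank among themselves is not settled. Kcnk3 was at 28.8 to 41.6, Kcnip2 at 24.4 to 41.7 and Kcng2 at 26.1 to 36.3 FPKM. Kcnj8 (13.5 to 19.3 FPKM) overlapped the next gene by mean, Kcnh2 (10.3 to 17.5 FPKM), so the last of the 5 places is not settled either.

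**Figure D1:**
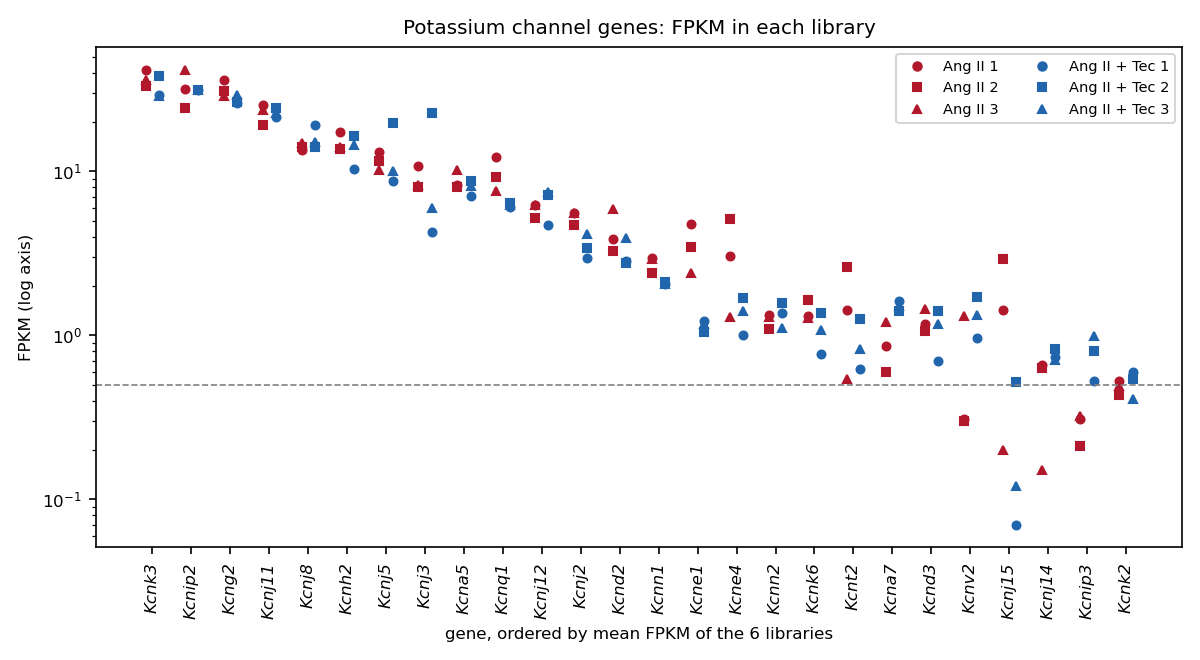
FPKM (log axis) of 26 of the 28 tested potassium channel genes in each library, ordered by mean, with the 0.5 FPKM limit dashed, Ang II hearts in red, Ang II + Tec hearts in blue and the marker shape giving the replicate number. The levels run from 34.6 FPKM for Kcnk3 to 0.50 FPKM for Kcnk2, and the libraries lie apart most widely for Kcnj15, from 0.07 to 2.94 FPKM.

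The other 58 genes were low. In all libraries 3 were at 0 (Kcnmb2, Kcnmb3 and Kcnj9), 48 were above 0 but under 0.5 FPKM in every library, and 7 reached 0.5 FPKM in 1 or 2 libraries. Just inside the limit stood Kcnk2, the stretch-sensitive channel TREK-1, at 0.53, 0.43 and 0.49 FPKM under Ang II alone and 0.60, 0.54 and 0.41 FPKM with Tec. Just outside it stood Kcnk13, at 0.63, 0.76 and 0.47 FPKM against 0.29, 0.25 and 0.36 FPKM with Tec, and Kcna4, the pore of the slow transient outward current, at 0.61, 0.45 and 0.18 FPKM against 0.08, 0.22 and 0.15 FPKM. The latter pair was not tested. The pseudogene Pdcd5-ps lies within Kcnk2 on the same strand at a mean of 28.2 FPKM, so reads at that place are of uncertain origin. Kcnmb1, the subunit of the calcium-activated channel of smooth muscle, was also untested. It was at 0.49, 1.33 and 0.45 FPKM under Ang II alone and 0.31, 1.24 and 0.48 FPKM with Tec. The summed smooth muscle markers (4 genes, none at 0) were at 134, 316 and 92.1 FPKM and at 49.9, 231 and 77.9 FPKM in the same libraries.

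The comparison of the groups asks how treatment with Tec during Ang II infusion goes with channel transcripts. It was fitted with limma on log2(FPKM + 1) over all 13089 genes, and all fold changes below are on that scale, which understates changes of low genes. Differential expression required a Benjamini-Hochberg adjusted p-value under 0.05 together with a log2 fold change of 1 or more in size. None of the 28 channel genes met this (0 of 28, against a background of 0.160% of all tested genes). At an unadjusted p-value under 0.05 there were 7 of 28 (25.0%), against 18.6% of all tested genes. The 4 lower with Tec (14.3%, against 16.5% of all genes) were Kcne1, Kcnq1, Kcnj2 and Kcnn1, and the 3 higher (10.7%, against 2.09%) included Kcnip3 and Kcna7. The groups did not overlap for these 7 and for Kcnj14, or 8 of 28 genes (28.6%), against 21.8% of all tested genes. In each direction these were 4 of 28 (14.3%), against 18.9% of all genes for the lower and 2.90% for the higher. Kcnip3 passed the 0.5 FPKM limit through the Tec-treated hearts alone, so its place among the higher genes follows partly from that limit.

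The scale of the whole comparison bears on each of these directions. Of all tested genes, 80.0% had a log2 fold change below 0 with Tec, and their median was -0.17. For the channel genes it was 16 of 28 (57.1%), with a median of -0.08. Rescaling the libraries by the median of ratios moved the median of all genes to 0.002 and that of the channel genes to 0.09, and quantile normalization moved them to 0.02 and 0.12. Differences are therefore best read against the median of all genes. The 4 lower genes stayed below 0 and the 3 higher genes above 0 under every scaling tried.

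**Figure D2:**
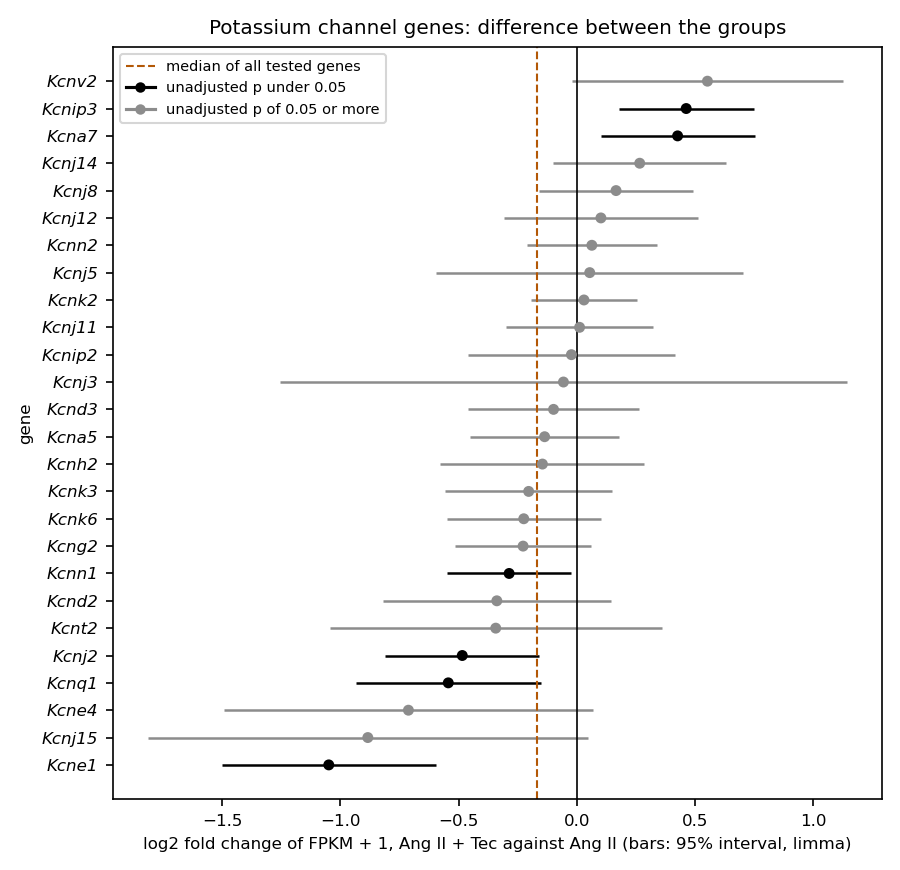
Log2 fold change of FPKM + 1 (points) with its 95% interval from limma (bars) for 26 of the 28 tested potassium channel genes, Ang II + Tec against Ang II. Black marks genes with an unadjusted p-value under 0.05, and the dashed line at -0.17 is the median of all tested genes; Kcne1 lies lowest at -1.05, while the intervals of Kcnj3 and Kcnj15 are the widest.

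The slow delayed rectifier gave the largest of these differences. Kcne1 encodes minK, the single-span subunit that slows and enlarges the current of the Kcnq1 pore. Its gene (ENSMUSG00000039639, chromosome 16, 92345982 to 92359468 on GRCm38, minus strand) was at 4.78, 3.45 and 2.40 FPKM under Ang II alone and at 1.22, 1.05 and 1.17 FPKM with Tec. All 3 Tec-treated hearts lay close together, below the lowest Ang II heart, and the Ang II hearts spread over a range of their own. The ratio of the group means was 0.324, and the log2 fold change was -1.05 ± 0.19 (SE, n = 3 per group), the unadjusted p-value was 0.000841, and after Benjamini-Hochberg adjustment in limma it was 0.154. Adjusted p-values for Kcne1 ranged from 0.000797 to 0.311 over the 11 alternative settings, and the gene was lower with Tec at an unadjusted p-value under 0.05 in all of them and with any 1 of the 6 libraries left out. The settings that brought it under both limits of differential expression were weights for the libraries (adjusted p-value of 0.000797, limma) and the omission of Ang II replicate 3 (0.00291, limma). These settings called 3.86% and 4.26% of all tested genes, against 0.160% in the reported fit. Over the 6 omissions of 1 library, the adjusted p-value of Kcne1 ranged from 0.00291 to 0.513 (limma).

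Its pore partner also lay lower, by less. Kcnq1 (chromosome 7, 143106362 to 143427042, plus strand) was at 12.3, 9.28 and 7.60 FPKM under Ang II alone and at 6.09, 6.38 and 6.25 FPKM with Tec. The Tec-treated hearts were nearly equal and the Ang II hearts were all higher, again with replicate 1 highest and replicate 3 lowest. The log2 fold change was -0.54 ± 0.17 (SE), with an adjusted p-value of 0.221 (limma). The level of Kcne1 relative to Kcnq1 was 0.389, 0.372 and 0.316 under Ang II alone and 0.200, 0.165 and 0.187 with Tec, so the auxiliary transcript was lower relative to its pore as well. This ratio was chosen after its values were seen and was not tested. Kcnq1ot1, the noncoding RNA transcribed from the other strand within Kcnq1, was at 0.01 to 0.03 FPKM, far below Kcnq1 in each library. Kcne4, another Kcnq1 partner, whose product inhibits the channel, was at 3.04, 5.14 and 1.30 FPKM under Ang II alone and 1.01, 1.68 and 1.41 FPKM with Tec. These groups overlapped, because Ang II replicate 3 lay within the Tec range, and the log2 fold change was -0.71 ± 0.33 (SE), with an adjusted p-value of 0.291 (limma). Single hearts decided its size: it was -1.08 without Ang II replicate 3 (adjusted p-value of 0.0118, limma) and -0.38 without Ang II replicate 2 (0.671, limma).

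The fibroblast markers were also highest in Ang II replicates 1 and 2, where Kcne1, Kcnq1 and Kcne4 were highest. In Ang II replicate 3 their sum (123 FPKM) lay within the range with Tec (105 to 175 FPKM). In that heart Kcne1 (2.40 FPKM) and Kcnq1 (7.60 FPKM) still lay above every Tec-treated heart. Of the 5 fibroblast markers, 3 had an unadjusted p-value under 0.05 (limma), against 18.6% of all tested genes. The leukocyte markers (6 genes, of which Cd3e was at 0 in Ang II replicate 3 and Ang II + Tec replicate 2) summed to 143 to 310 FPKM under Ang II alone and 103 to 113 FPKM with Tec. Only 3 of them were tested, and these 3 had an unadjusted p-value under 0.05 (limma). Ventricular muscle markers summed to 3429 to 5104 FPKM and 4422 to 5274 FPKM, so these groups overlapped, as the fibroblast sums did. Of the 6 ventricular markers, 1 had an unadjusted p-value under 0.05 (limma). The part of fibroblasts and leukocytes in the differences was not tested. Scaled to the FPKM outside the mitochondrial genome, Kcne1 was at -1.03 and Kcnq1 at -0.51. With the median of ratios they were at -0.89 and -0.33, and with quantile normalization at -0.86 and -0.32.

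Among inward rectifiers, Kcnj2 lay lower with Tec, and its close relative Kcnj12 had overlapping groups. Kcnj2 encodes Kir2.1, the main pore of the current that holds the ventricular resting potential. Kcnj2 (chromosome 11, 111066164 to 111076821, plus strand) was at 5.61, 4.68 and 5.60 FPKM under Ang II alone and at 2.97, 3.42 and 4.16 FPKM with Tec. All Tec-treated hearts lay below all Ang II hearts, and here Ang II replicate 3 was level with replicate 1. The log2 fold change was -0.48 ± 0.14 (SE), with an adjusted p-value of 0.218 (limma). With the median of ratios it was -0.29 and with quantile normalization -0.28, and the unadjusted p-values were then 0.115 and 0.154 (limma). Kcnj12, which encodes Kir2.2, was at 6.25, 5.18 and 6.21 FPKM against 4.74, 7.20 and 7.49 FPKM with Tec, a log2 fold change of 0.10 with a 95% interval from -0.31 to 0.51.

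Kcnj14, the pore Kir2.4, stood low at 0.66, 0.63 and 0.15 FPKM under Ang II alone and at 0.74, 0.82 and 0.71 FPKM with Tec. The groups did not overlap, Ang II replicate 3 lay far below the other Ang II hearts, and the log2 fold change was 0.27, with an unadjusted p-value of 0.129 (limma). It was 0.09 without Ang II replicate 3, and 0.37 and 0.38 with the median of ratios and quantile normalization, where the unadjusted p-values were 0.0267 and 0.0109 (limma). Kcnj15, the pore Kir4.2, was at 1.42, 2.94 and 0.20 FPKM against 0.07, 0.52 and 0.12 FPKM with Tec. Ang II replicates 1 and 2 stood above the other hearts, and the log2 fold change was -0.88 ± 0.40 (SE), with an adjusted p-value of 0.281 (limma). It was -1.34 without Ang II replicate 3 (adjusted p-value of 0.00983, limma) and -0.48 without Ang II replicate 2 (0.655, limma).

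The pores of the ATP-sensitive channel, which open when cell energy falls, were not separated by the test. Kcnj11, the pore of the muscle cell's channel, was at 25.5, 19.3 and 23.6 FPKM against 21.6, 24.4 and 22.6 FPKM with Tec, with a 95% interval of the log2 fold change from -0.30 to 0.32. Kcnj8, the pore of vessels and pericytes, was at 13.5, 14.1 and 14.9 FPKM against 19.3, 14.1 and 15.1 FPKM, with an interval from -0.16 to 0.49. The log2 fold change of Kcnj8 was 0.17, and it was 0.39 with the median of ratios and 0.38 with quantile normalization, at unadjusted p-values of 0.0912 and 0.0848 (limma). Abcc9, which encodes SUR2, a regulatory partner of both pores, was at 12.8, 10.1 and 16.7 FPKM against 19.0, 16.1 and 16.2 FPKM. Its log2 fold change was 0.37 ± 0.18 (SE), with an adjusted p-value of 0.303 (limma). It was 0.54 without Ang II replicate 3 (adjusted p-value of 0.0259, limma) and 0.21 without Ang II replicate 2 (0.696, limma).

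**Figure D3:**
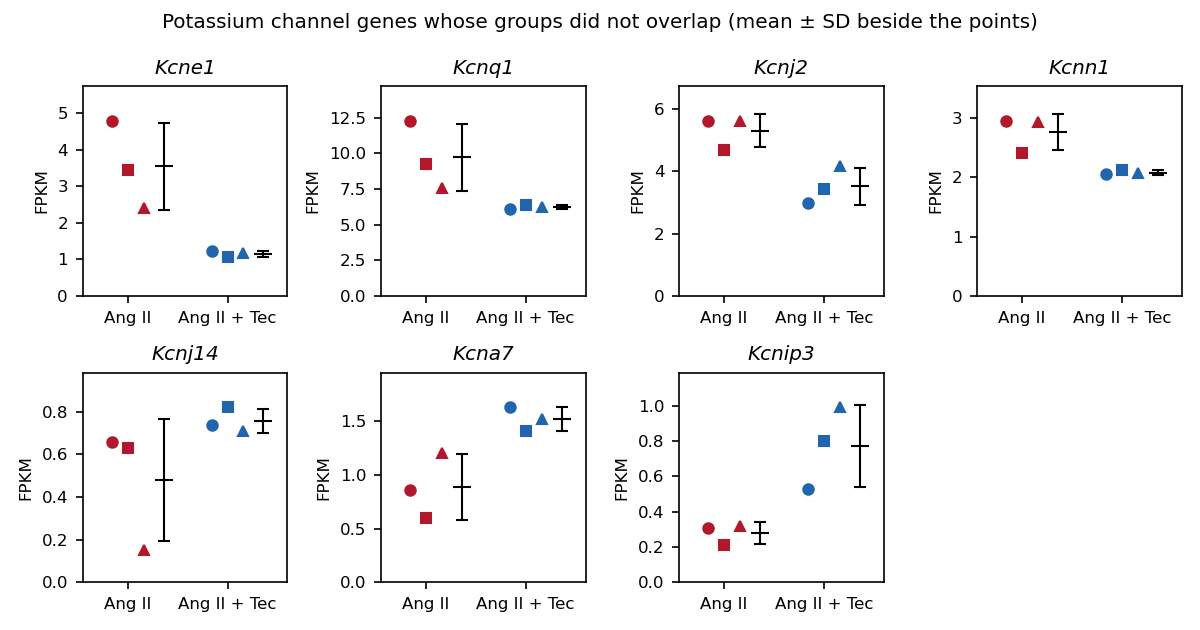
FPKM of 7 of the 8 potassium channel genes whose groups did not overlap, in each Ang II heart (red) and Ang II + Tec heart (blue), with circles, squares and triangles for replicates 1, 2 and 3 and the mean ± SD beside the points (n = 3 per group). In Kcne1, Kcnq1, Kcnj2 and Kcnn1 every Tec-treated heart is lower, and in Kcnj14, Kcna7 and Kcnip3 every one is higher.

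The other genes of adult repolarisation had overlapping groups. Of 14 genes listed for ventricular and atrial repolarisation, 13 were tested. At an unadjusted p-value under 0.05, 3 were lower (Kcne1, Kcnq1 and Kcnj2, or 23.1%, against 16.5% of all genes) and 0 were higher (against 2.09%), with a median log2 fold change of -0.14 against -0.17 for all genes. The transient outward pores Kcnd2 and Kcnd3 were at 3.26 to 5.91 FPKM and 1.06 to 1.44 FPKM under Ang II alone and at 2.75 to 3.93 FPKM and 0.70 to 1.40 FPKM with Tec. Their log2 fold changes had 95% intervals from -0.82 to 0.15 and from -0.46 to 0.26. Kcnd2, at -0.34, reached an unadjusted p-value of 0.0348 with the replicate block and 0.0426 with the atrial marker score (limma). In those fits 25.3% and 26.7% of all genes were under 0.05, against 18.6% in the reported fit. Kcnip2, the subunit of Kcnd2 and Kcnd3, was at 31.7, 24.4 and 41.7 FPKM under Ang II alone and at 31.4, 31.2 and 31.5 FPKM with Tec. The 3 Tec-treated hearts were almost identical and lay inside the wide Ang II range. The rapid delayed rectifier pore Kcnh2 was at 13.8 to 17.5 FPKM against 10.3 to 16.5 FPKM. All of these groups overlapped. The RNA Gm9899 overlaps Kcnk3 on the opposite strand at a mean of 2.00 FPKM, and as the use of strand in counting is not stated, reads of such pairs cannot be told apart.

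Of the Kv genes outside this list, Kcna7 was higher with Tec and low throughout. Kcna7, the pore Kv1.7 of heart and skeletal muscle, was at 0.86, 0.60 and 1.21 FPKM under Ang II alone and at 1.63, 1.41 and 1.52 FPKM with Tec. The Tec-treated hearts all lay above the highest Ang II heart, replicate 3, and the log2 fold change was 0.43 ± 0.14 (SE), with an adjusted p-value of 0.227 (limma). Its unadjusted p-value stayed under 0.05 in 3 of the 6 fits without 1 library. The silent subunit Kcnv2 was at 0.31, 0.30 and 1.31 FPKM against 0.96, 1.72 and 1.33 FPKM. Ang II replicates 1 and 2 were low and replicate 3 lay within the Tec range, so the groups overlapped, and the log2 fold change of 0.55 ± 0.25 (SE) had an adjusted p-value of 0.278 (limma). It was 0.83 without Ang II replicate 3 (adjusted p-value of 0.0107, limma), and 0.42 and 0.41 without Ang II replicate 1 and without replicate 2 (0.669 and 0.656, limma). Kcng2, the abundant silent subunit, was at 36.3, 31.1 and 28.9 FPKM against 26.1, 26.3 and 29.1 FPKM, with a 95% interval of the log2 fold change from -0.52 to 0.06.

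Kcnip3, also called calsenilin or DREAM, is a calcium-binding relative of Kcnip2 that binds Kv4 pores and DNA. It was at 0.31, 0.21 and 0.32 FPKM under Ang II alone and at 0.53, 0.80 and 0.99 FPKM with Tec, with no overlap. The ratio of the means was 2.76, the log2 fold change was 0.46 ± 0.12 (SE) and the adjusted p-value was 0.201 (limma). It stayed higher at an unadjusted p-value under 0.05 (limma) in the 10 alternatives that tested it and in the 6 fits without 1 library. The stricter filter, 1 FPKM in at least 3 libraries, left it untested. As it passed the 0.5 FPKM limit through the Tec-treated hearts alone, these refits of the same data are no separate support. Kcnip3 lay far below Kcnip2 in every library of both groups.

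Of the calcium- and sodium-activated channels, Kcnn1 lay slightly lower with Tec. Kcnn1 encodes SK1, a small-conductance channel opened by calcium through calmodulin. It was at 2.95, 2.41 and 2.93 FPKM under Ang II alone and at 2.05, 2.12 and 2.07 FPKM with Tec. The log2 fold change was -0.29 ± 0.11 (SE), with an adjusted p-value of 0.249 (limma). It came close to the median of all genes: it was -0.12 with the median of ratios and -0.10 with quantile normalization, and its unadjusted p-value stayed under 0.05 in 1 of the 6 fits without 1 library. Its relative Kcnn2, the main SK pore of the atrium, was at 1.10 to 1.33 FPKM against 1.11 to 1.57 FPKM, with a 95% interval from -0.21 to 0.34.

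Channels known to be richer in atrial than in ventricular muscle need the atrial markers beside them. Of the 7 genes listed, 6 were tested, 0 had an unadjusted p-value under 0.05 (against 18.6% of all genes) and 4 had a log2 fold change below 0 (66.7%, against 80.0%), with a median of -0.10 against -0.17. Kcnj3, the pore GIRK1 through which acetylcholine slows the heart, was at 10.9, 8.00 and 8.26 FPKM under Ang II alone and at 4.28, 22.7 and 6.01 FPKM with Tec. Ang II + Tec replicate 2, the heart with the highest Myl7 (1040 FPKM) and Bmp10 (23.9 FPKM), had more Kcnj3 than any other heart, and the remaining Tec-treated hearts had less than every Ang II heart. The log2 fold change was -0.06 with a 95% interval from -1.26 to 1.14, and it was -0.71 with an adjusted p-value of 0.274 (limma) without that heart. With the atrial marker score as a term of the fit it was 0.16 ± 0.35 (SE).

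Kcnj5, the GIRK4 subunit that joins Kcnj3, had the same heart on top, at 13.2, 11.6 and 10.2 FPKM against 8.79, 19.8 and 10.0 FPKM. The level of Kcnj3 relative to Kcnj5 was 0.825, 0.692 and 0.807 under Ang II alone and 0.487, 1.15 and 0.600 with Tec, so the range with Tec enclosed that of the Ang II group. Kcnj3 and Kcnj5 were well above 0 in the hearts where Myl7 was at 0. In Ang II replicate 3, with Myl7 at 0 FPKM, they were at 8.26 and 10.2 FPKM, and in Ang II + Tec replicate 1, also with Myl7 at 0 FPKM, they were at 4.28 and 8.79 FPKM.

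Kcnk3, a channel of atrial as well as ventricular muscle, was at 41.6, 33.4 and 35.9 FPKM against 29.3, 38.3 and 28.8 FPKM, and Kcna5, the pore of the ultrarapid delayed rectifier, at 8.27, 8.09 and 10.2 FPKM against 7.04, 8.73 and 8.12 FPKM. Within the Ang II + Tec group both were highest in replicate 2, and their groups overlapped. Over all hearts, Kcnk3 was highest in Ang II replicate 1. Kcna5 was highest in Ang II replicate 3, where Myl7 was at 0 FPKM. Kcnt2, the sodium-activated channel Slick, was at 1.43, 2.63 and 0.54 FPKM against 0.62, 1.26 and 0.82 FPKM. Its highest hearts, Ang II replicates 1 and 2 and Ang II + Tec replicate 2, were those with Sln (67.1, 135 and 255 FPKM) and with Myl4 (150, 330 and 249 FPKM), which were at most 0.05 and 1.02 FPKM elsewhere. The same hearts also had the highest summed fibroblast markers (552, 697 and 175 FPKM) and smooth muscle markers (134, 316 and 231 FPKM). The part of fibroblasts and smooth muscle in these levels was not tested, and that of atrial tissue was not tested beyond the fit with the marker score. With that score as a term, Kcne1 was at -1.01, Kcnq1 at -0.50, Kcnj2 at -0.49, Kcnn1 at -0.29, Kcna7 at 0.39 and Kcnip3 at 0.46.

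**Figure D4:**
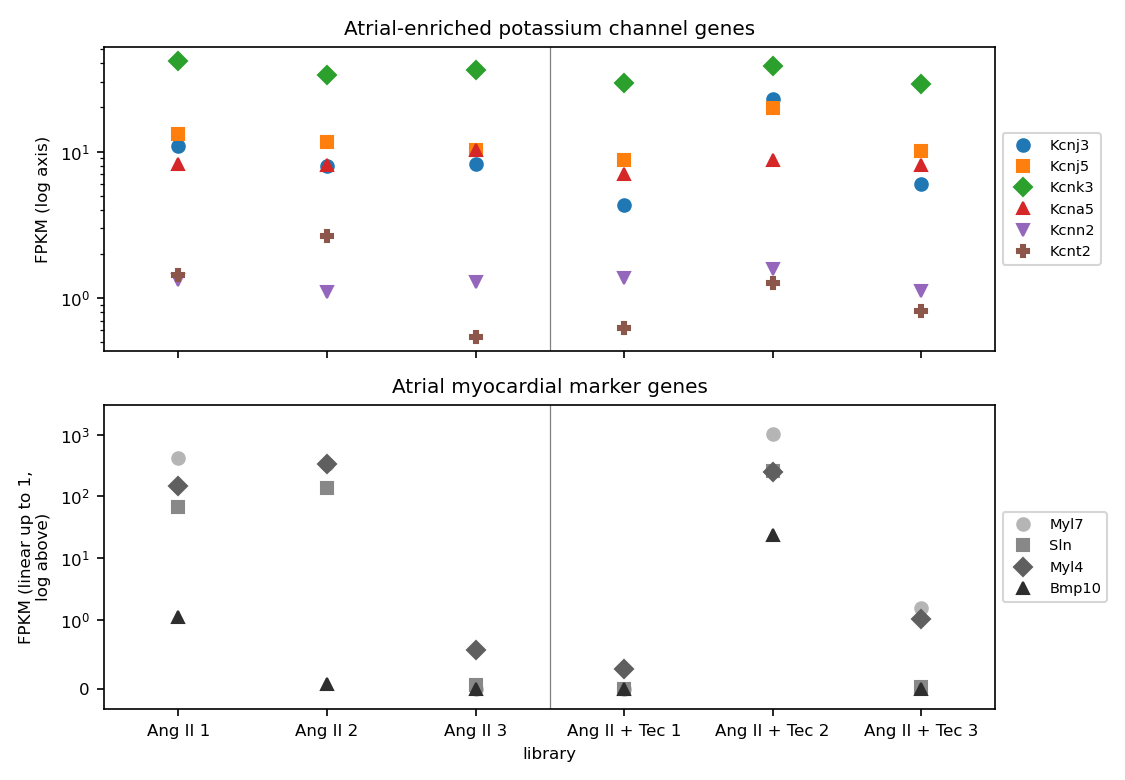
FPKM by library of 6 potassium channel genes listed as atrial-enriched (top, log axis) and of 4 atrial muscle markers (bottom, linear up to 1 FPKM and log above). Kcnj3 and Kcnj5 peak in Ang II + Tec replicate 2, where Myl7 reaches 1040 FPKM, yet remain at 4.28 FPKM or more in the hearts where Myl7 is at 0.

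Proteins that modify or anchor potassium channels, or share their ionic work, were listed beside them. Of 31 genes listed, 30 were in the table and 22 were tested. Of these, 4 were lower at an unadjusted p-value under 0.05 (18.2%, against 16.5% of all genes), 0 were higher, and the median log2 fold change was -0.10. Fhl2, a LIM protein known to bind minK, was at 1109, 911 and 912 FPKM under Ang II alone and at 604, 471 and 575 FPKM with Tec. The groups were far apart, and the log2 fold change was -0.83 ± 0.15 (SE), with an adjusted p-value of 0.154 (limma). Cav3, the caveolin of muscle in whose membrane pits several channels reside, was at 77.4, 76.2 and 61.2 FPKM against 49.6, 40.1 and 43.1 FPKM, with a log2 fold change of -0.68 and an adjusted p-value of 0.180 (limma). Rgs4 and Gnb5, which shorten G protein signals to the acetylcholine-gated channel, had log2 fold changes of -0.72 and -0.50 and adjusted p-values of 0.224 and 0.232 (limma), and the groups overlapped for Gnb5, which kept an unadjusted p-value under 0.05 in 2 of the 6 fits without 1 library. The receptors that open this channel, Chrm2 and Adora1, had overlapping groups (14.2 to 17.7 against 11.6 to 20.9 FPKM and 2.72 to 4.04 against 2.25 to 4.02 FPKM). Rgs6, listed beside Rgs4, overlapped too (1.27 to 2.21 against 1.03 to 2.10 FPKM). Its log2 fold change was -0.24, with an adjusted p-value of 0.503 (limma).

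The sodium pump, which restores the potassium gradient on which all these channels draw, was listed with 14 genes, of which 9 were tested. At an unadjusted p-value under 0.05, 4 were lower (44.4%, against 16.5% of all genes) and 0 higher, and the median log2 fold change was -0.34. Atp1b1, the main beta subunit, was at 146, 143 and 91.3 FPKM under Ang II alone and at 74.4, 74.0 and 80.7 FPKM with Tec. The Tec-treated hearts were close together below all Ang II hearts, and the log2 fold change was -0.69 ± 0.19 (SE), with an adjusted p-value of 0.209 (limma). The pump regulators Fxyd5, Fxyd7 and Fxyd1 (phospholemman) had log2 fold changes of -1.11, -0.41 and -0.24 and adjusted p-values of 0.221, 0.237 and 0.266 (limma). Fxyd1 was at -0.011 with the median of ratios and -0.025 with quantile normalization, and kept an unadjusted p-value under 0.05 in 1 of the 6 fits without 1 library. Fxyd7 kept it in 3 of those 6 fits.

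**Figure D5:**
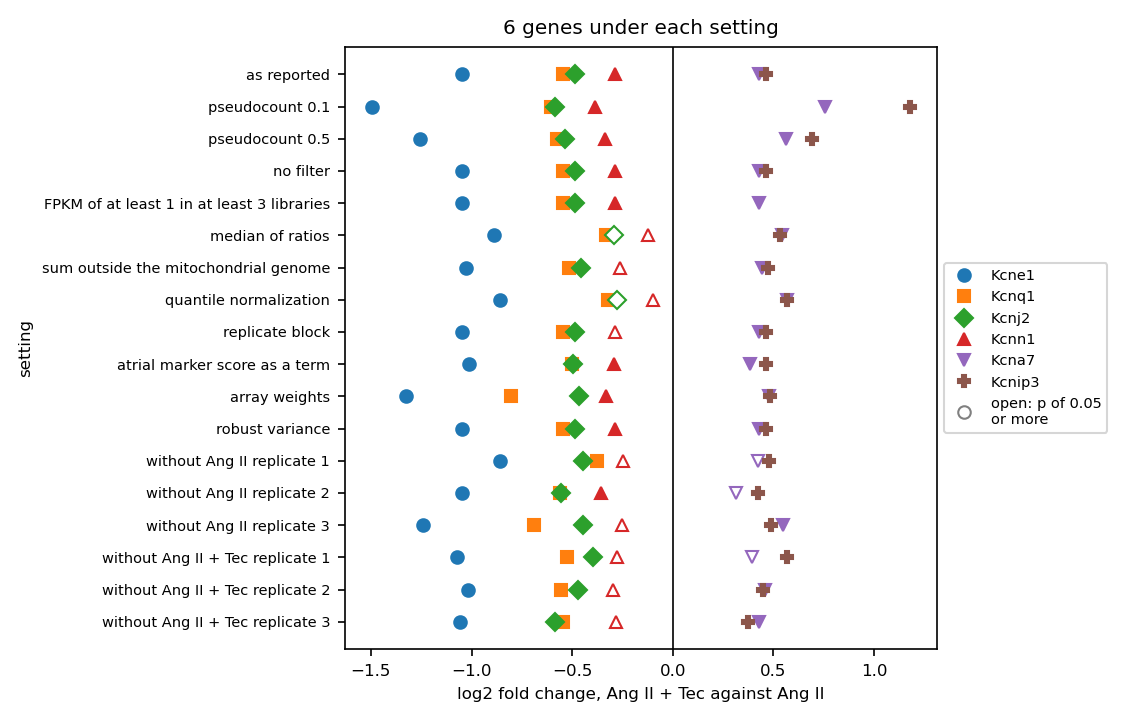
Log2 fold change, Ang II + Tec against Ang II, of 6 of the 7 genes with an unadjusted p-value under 0.05, as reported and under each alternative setting; filled symbols have an unadjusted p-value under 0.05 in limma and open ones 0.05 or more. Kcne1 stays between -1.50 and -0.86 and filled in every setting, while Kcnn1 is open with most single libraries left out.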

How the data were processed

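RNA was extracted from hearts of 3 Ang II and 3 Ang II + Tec mice, and poly(A) RNA was sequenced (the labels name a NovaSeq instrument, the methods a HiSeq). The authors trimmed reads with Cutadapt and deposited FPKM per gene and library. The submitters' processing notes name Bowtie 0.12.2, HISAT2 2.0, StringTie 1.3.0 and the build mm8, without roles, although the deposited coordinates equal those of GENCODE M21 on GRCm38 for 27947 of 30832 shared genes (90.6%). Whether counting used strand is not given in the sources used here.

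Values of log2(FPKM + 1), with no further scaling, were fitted with limma 3.58.1 in R 4.3.3 (eBayes with a trend), for genes with at least 0.5 FPKM in at least 3 libraries, with Benjamini-Hochberg adjustment over all 13089 genes and no covariate. FPKM are not counts, and no count model was used. Permuting 3 against 3 libraries exactly gives p-values of 0.1 at the lowest for any gene. Relative depth was read from the spacing of low FPKM, at which 1 fragment in 1 kb is worth 0.0237 to 0.0322 FPKM, so values near 0.05 FPKM rest on few fragments. The fit was tested on simulated data, with independent noise per gene and log2 fold changes of 2 planted in higher genes only. It recovered 199 of 200 planted changes, with 4 false calls. That setting does not cover smaller changes, low genes or differences shared by many genes. Stretches of coding sequence were read from GENCODE M21 on GRCm38, and motif searches used the letters of the codons on the coding strand alone.

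The channel genes, the gene lists and the tests were chosen with earlier results of these data known. Named genes were the tested channel genes of the repolarisation and atrial lists, those at an unadjusted p-value under 0.05 or without overlap between groups, the 5 highest by mean, the 3 largest increases and decreases, and, of the partner and pump lists, those at an unadjusted p-value under 0.05 and Abcc9. Kcnmb1, Kcnk13, Kcnk2, Chrm2, Adora1 and Rgs6 were added after their values were seen. Some genes and sequences that these rules select are not reported here, although the counts include them. Alternatives changed the pseudocount, filter, scaling, block, weights and variance, added an atrial marker score as a term, and left out each library in turn. Figures were drawn with matplotlib 3.10.9 and tables handled with pandas 2.3.3.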

Additional observations from a re-analysis of the deposited data

How the results depend on the processing

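The channel genes differentially expressed numbered 0 in the reported fit, 2 with weights for the libraries (Kcne1 and Kcnj15, where 3.86% of all genes were called) and 0 to 3 with 1 library left out. The 3 were Kcne1, Kcne4 and Kcnj15, without Ang II replicate 3, where 4.26% of all genes were called. At an unadjusted p-value under 0.05 there were 15 of 83 genes without a filter (10 lower and 5 higher), where 11.6% of all genes passed, and 17 of 28 with library weights (12 lower and 5 higher), where 65.0% of all genes passed. With the median of ratios, 2 were lower and 5 higher, where 15.6% of all genes passed. With quantile normalization also 2 were lower and 5 higher, where 16.2% of all genes passed. The median log2 fold change of all genes was 0.002 and 0.02 in these fits, and their share of all genes in each direction is not given. With 1 library left out the number lay between 4 (omitting Ang II replicate 1) and 11 (omitting Ang II replicate 3), while 7.40% and 43.7% of all genes passed in these fits. Over all omissions 3 to 7 were lower and 1 to 4 higher, the 1 being reached without Ang II replicate 1 or 2. The median log2 fold change of the channel genes was 0.091 with the median of ratios and 0.12 with quantile normalization, and ranged from -0.20 (without Ang II + Tec replicate 2) to 0.012 (without Ang II + Tec replicate 1).

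The directions that turned belonged to genes with reported log2 fold changes from -0.23 to 0.10. With the median of ratios, Kcnip2 was at 0.21, Kcnj3 0.15, Kcnh2 0.074, Kcnd3 0.016, Kcna5 0.072, Kcnk3 0.025 and Kcng2 0.0015. With quantile normalization, these were 0.22, 0.17, 0.085, 0.046, 0.078, 0.033 and 0.011. Scaling outside the mitochondrial genome put Kcnip2 at 0.0093, and the atrial score put Kcnj3 at 0.16. With library weights, Kcnip2 was at 0.027, Kcnj5 -0.30, Kcnk2 -0.032, Kcnn2 -0.044 and Kcnj11 -0.12. With 1 library left out, the range was -0.21 to 0.17 for Kcnip2, -0.71 to 0.37 for Kcnj3, -0.28 to 0.26 for Kcnj5, -0.0090 to 0.082 for Kcnk2, -0.28 to 0.034 for Kcnh2, -0.20 to 0.045 for Kcnd3, -0.00019 to 0.28 for Kcnj12, -0.0040 to 0.14 for Kcnn2 and -0.099 to 0.095 for Kcnj11.

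Whether the replicate numbers pair the samples was not settled. The correlations of same-numbered deviations were -0.04, 0.43 and 0.38, and those of differently numbered samples were not computed. With the replicate block, the differentially expressed channel genes numbered 0, and those at an unadjusted p-value under 0.05 numbered 9 (6 lower and 3 higher, where 25.3% of all genes passed), with the same median of -0.08; Kcne1 had an adjusted p-value of 0.0954 (limma). FPKM of the low genes rest on few fragments and give no counting interval, and an adjusted p-value above 0.05 with 3 hearts per group does not show that a gene was level.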

Other observations

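The antisense RNAs named after channel genes were no members. Kcnd3os, opposite to Kcnd3, was at 0.34, 0.33 and 0.40 FPKM under Ang II alone and at 0.28, 0.43 and 0.13 FPKM with Tec, against 1.06 to 1.44 and 0.70 to 1.40 FPKM of Kcnd3. Kcnmb4os2 was at 0.04 FPKM in Ang II + Tec replicate 3 and listed at 0 in the other libraries. Of the adipocyte markers, Cidec was at 22.1 FPKM in Ang II + Tec replicate 2, the heart highest in Kcnj3 and Kcnj5, and at most 3.28 FPKM elsewhere. These genes were chosen after their values were seen.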
